A study of Mus musculus with 15 samples.

Results

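The genes described here are 43 cell cycle genes, 19 that act in or around DNA replication (S phase) and 24 that act in mitosis, taken by gene symbol from the 24690 entries counted in each of 15 RNA-seq libraries. All 43 symbols were found. The libraries came from type 2 innate lymphoid cells of the lamina propria (LP ILC2s) and from their precursors in the bone marrow (BM ILC2p) of C57BL/6 mice, either WT or lacking the TGF-β receptor II gene (Tgfbr2-/-). All cells carried floxed Tgfbr2 alleles and ER-Cre (Tgfbr2 f/f ER-Cre+), so the WT groups differed from the Tgfbr2-/- groups by treatment: sunflower oil for WT, and tamoxifen at 1 mg per day for Tgfbr2-/-, each for 5 days. LP ILC2s (4 WT and 3 Tgfbr2-/- libraries) were sorted from the treated mice themselves 1 day after the last treatment. BM ILC2p (4 WT and 4 Tgfbr2-/- libraries) were sorted as CD45.2+ Lin- CD127+ α4β7+ CD25+ cells from irradiated hosts that had received marrow of treated mice mixed with normal CD45.1+ marrow 6 weeks before. The Tgfbr2 f/f ER-Cre+ mice were 8 to 12 weeks of age when treated. ER-Cre is active in every tissue once tamoxifen is given, so the deletion in the LP mice was not restricted to ILC2s. Each cell type was sequenced in 2 experiments, and below the libraries of a group are given in the order experiment 1 replicate 1, experiment 1 replicate 2, experiment 2 replicate 1 and experiment 2 replicate 2 (for LP Tgfbr2-/- the last is lacking). The labels do not say that the libraries came from separate animals, so the p-values measure the spread between these libraries, which may be technical.

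A dividing cell copies its DNA once in S phase and parts the copies in mitosis. Before S phase, Cdc6 and Cdt1 load the ring of Mcm2 to Mcm7 onto replication origins. Cyclin E (Ccne1, Ccne2) and E2f1 drive entry, Cdc45 and Gins2 turn the ring into the active helicase, Pcna is the sliding clamp of the polymerases, and Tyms, Tk1, Rrm1 and Rrm2 supply deoxynucleotides. Uhrf1 carries DNA methylation over to the new strand. In mitosis, cyclins A and B (Ccna2, Ccnb1, Ccnb2) activate Cdk1, and the kinases Plk1, Aurka and Aurkb act on the spindle and chromosomes. Kif11, Kif20a, Kif23, Tpx2 and Nusap1 act on the spindle microtubules, Cenpa, Cenpe, Cenpf, Bub1 and Bub1b act at kinetochores, and Birc5 and Cdca8 belong to the chromosomal passenger complex. Cdc20 and Ube2c serve the anaphase-promoting complex, which ends mitosis by marking cyclins for destruction. Top2a untangles the copies, Cdca3 is a mitotic regulator, and Mki67 encodes Ki-67, a protein widely used to mark cycling cells. Mature tissue ILC2s are mostly resting cells that divide when alarm cytokines such as IL-33 reach them.

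Genes of the classes are known to differ in their promoters: E2F sites recur at S phase genes, and at mitotic genes the cell cycle homology region (CHR) with CCAAT boxes. RefSeq promoters (GRCm38.p6, 250 bases before to 50 after the start of the gene) were at hand for 16 of the 19 S phase genes and 20 of the 24 mitotic genes. The letters TTTGAA (CHR), searched on both strands, stood in 15 of the 20 mitotic promoters (75%), in 2 of the 16 S phase promoters (12.5%) and in 18.1% of all 27025 promoters. CCAAT stood in 18 mitotic promoters (90.0%), in 10 S phase promoters (62.5%) and in 37.9% of all. An E2F motif, TTTCCCGC, TTTGGCGC, TTTCGCGC or TTTGCCGC on either strand, stood in 6 S phase promoters (37.5%), in 1 mitotic promoter (5.0%), that of Cdk1, and in 2.3% of all. These are matches of letters and not mapped binding sites. Shown on the strand of the gene are the promoters of Mki67, the mitotic gene that passed the genotype test below, of Ccnb2 and Ube2c, whose levels parted the genotypes in BM, and of Mcm5 as an S phase gene, with CHR, CCAAT and E2F letters of either strand in capitals.
Mki67, chr7:135716330-135716629, minus strand: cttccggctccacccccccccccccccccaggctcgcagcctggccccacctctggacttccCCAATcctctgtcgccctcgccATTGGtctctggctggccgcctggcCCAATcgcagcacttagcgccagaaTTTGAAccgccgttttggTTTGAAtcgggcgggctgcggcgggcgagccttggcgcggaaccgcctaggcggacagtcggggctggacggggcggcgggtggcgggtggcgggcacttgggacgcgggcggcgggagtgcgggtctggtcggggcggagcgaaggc
Ccnb2, chr9:70421505-70421804, minus strand: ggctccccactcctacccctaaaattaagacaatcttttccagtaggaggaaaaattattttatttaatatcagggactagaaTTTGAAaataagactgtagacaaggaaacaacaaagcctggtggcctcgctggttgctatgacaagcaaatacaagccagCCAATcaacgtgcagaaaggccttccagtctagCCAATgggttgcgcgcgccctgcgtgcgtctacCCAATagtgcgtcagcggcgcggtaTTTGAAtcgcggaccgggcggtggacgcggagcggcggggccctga
Ube2c, chr2:164769679-164769978, plus strand: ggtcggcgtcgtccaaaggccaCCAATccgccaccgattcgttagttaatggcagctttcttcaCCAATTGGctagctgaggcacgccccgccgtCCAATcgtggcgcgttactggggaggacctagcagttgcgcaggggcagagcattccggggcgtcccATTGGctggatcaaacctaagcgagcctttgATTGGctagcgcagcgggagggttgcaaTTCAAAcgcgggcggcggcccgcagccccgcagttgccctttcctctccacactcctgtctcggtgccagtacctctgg
Mcm5, chr8:75109259-75109558, plus strand: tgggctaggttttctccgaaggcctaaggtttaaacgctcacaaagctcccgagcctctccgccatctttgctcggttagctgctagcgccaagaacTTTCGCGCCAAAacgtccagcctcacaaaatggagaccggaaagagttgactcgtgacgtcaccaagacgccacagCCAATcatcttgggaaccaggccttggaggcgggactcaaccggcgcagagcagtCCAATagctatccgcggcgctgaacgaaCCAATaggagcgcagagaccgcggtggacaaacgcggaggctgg
Mki67 and Ccnb2 each held 2 CHR and 3 CCAAT matches. Ube2c held 1 CHR, read on the other strand as TTCAAA, and 6 CCAAT matches, of which 2 overlap as CCAATTGG. Mcm5 held no CHR, 3 CCAAT matches and 2 overlapping E2F matches that share the run TTTCGCGCCAAA.

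Several libraries limit what can be read from single genes. Library totals, counted on genes, lay between 12167066 and 32114265 in LP and between 10957021 and 35961215 in BM. Detection was nonetheless patchy in BM. Of the genes that averaged at least 10 CPM (counts per 1000000 after TMM scaling) in the other libraries of the cell type, 7.48% to 35.56% were under 1 CPM in a single BM library, against 0.37% to 8.33% in a single LP library. WT replicate 1 of experiment 1 stood at 35.56% and had 18 of the 43 cell cycle genes under 1 CPM, whereas Tgfbr2-/- replicate 1 of experiment 2, at 14.1%, had 0 of 43. The other Tgfbr2-/- BM libraries stood at 26.37% to 33.61%. Log2(CPM + 1) correlated across genes between libraries of a group at 0.798 to 0.931 in LP and at 0.562 to 0.787 in BM. Reads on Tgfbr2 itself did not separate the genotypes. Its level was 172, 262, 150 and 207 CPM in LP ILC2s labelled WT and 206, 184 and 96.6 CPM in those labelled Tgfbr2-/-. In BM ILC2p it was 0.714, 233, 107 and 188 CPM in libraries labelled WT and 87.4, 130, 30.9 and 219 CPM in those labelled Tgfbr2-/-. The counts cover the whole transcript, so they could not check the deletion of floxed exons, and the genotypes below are those of the labels.

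The sort markers also differed. The 12 ILC2 markers (among them Gata3, Il7r and Il1rl1) summed to between 8268 and 12132 CPM in every LP library and every WT BM library, with none of the 12 at 0 in all libraries of a group. In Tgfbr2-/- BM libraries they summed to 4288, 4115, 3909 and 5802 CPM. The 10 neutrophil markers summed to 176, 177, 485 and 238 CPM in WT BM libraries and to 90853, 72601, 76671 and 80844 CPM in Tgfbr2-/- BM libraries, where the most abundant, S100a8, averaged 25803 CPM. The 5 granulocyte precursor markers, of which Mpo was the most abundant, summed to 768, 1725, 604 and 1440 CPM in WT and to 9938, 12252, 8084 and 16526 CPM in Tgfbr2-/- BM libraries. Together these 15 genes took 0.0861% to 0.204% of the raw counts of WT and 7.47% to 8.49% of the counts of Tgfbr2-/- BM libraries. In LP libraries the neutrophil markers summed to at most 21.9 CPM, and Elane, Mpo, Ctsg and Ms4a3 were at 0 in all 7. The lineage antibodies listed in the methods of the study include CD11b and Gr-1, which granulocytes carry. How far the Lin- gate removed such cells was not tested. The part of granulocytes and their dividing precursors in the BM results below was not tested.

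Summed over the 19 S phase genes, the level was 822, 721, 569 and 581 CPM in WT LP ILC2s and 550, 615 and 558 CPM in Tgfbr2-/- LP ILC2s. In BM ILC2p the S phase sum was 1351, 1061, 869 and 1257 CPM (WT) against 2346, 2626, 2331 and 2576 CPM (Tgfbr2-/-). All 4 Tgfbr2-/- BM libraries thus stood above all other libraries, and the 3 Tgfbr2-/- LP libraries fell within or below the range of WT. In LP ILC2s the 24 mitotic genes summed to 347, 407, 190 and 212 CPM (WT) against 229, 268 and 145 CPM (Tgfbr2-/-). In BM ILC2p the mitotic sum was 939, 355, 610 and 666 CPM (WT) against 3547, 2327, 2220 and 2077 CPM (Tgfbr2-/-). The Tgfbr2-/- BM libraries were again apart from all others, by a wider gap than in S phase genes. The ratio of the mitotic to the S phase sum was 0.260 to 0.565 over the 7 LP libraries, 0.334 to 0.701 over the WT BM libraries and 0.806 to 1.51 over the Tgfbr2-/- BM libraries. In bulk RNA, fewer cycling cells and less of these RNAs in each cell cannot be told apart.

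**Figure D1:**
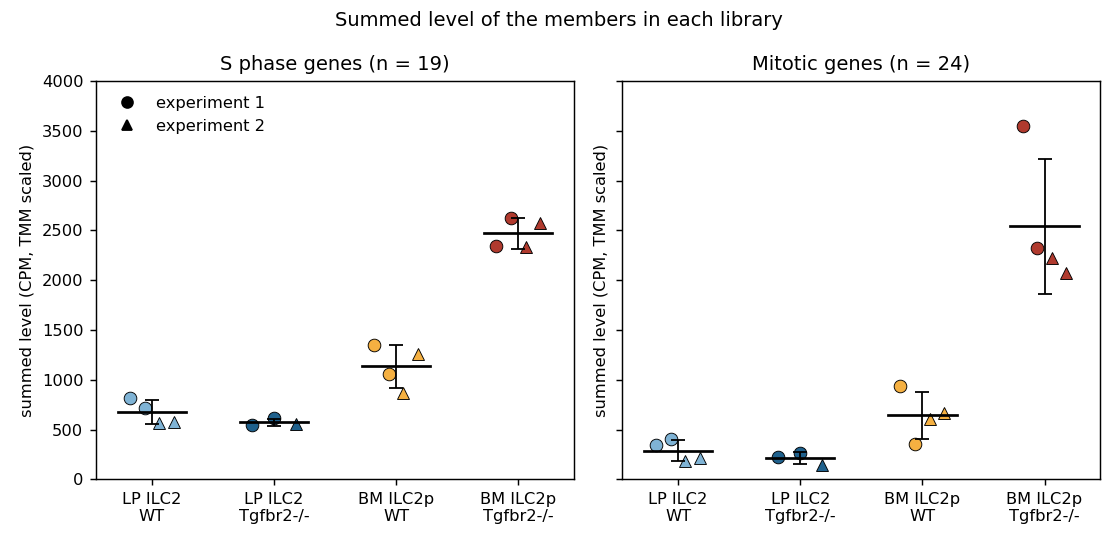
Summed level of the 19 S phase genes and of the 24 mitotic genes in each library (TMM CPM, y axes from 0), by cell type and genotype, with circles for experiment 1, triangles for experiment 2 and lines for group means with their SD. The 4 Tgfbr2-/- BM libraries lie at 2331 to 2626 CPM for S phase genes and at 2077 to 3547 CPM for mitotic genes, above every other library.

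Levels between genes were compared on the deposited RPKM, which corrects for length. Pcna led the S phase genes in LP ILC2s, with a group median of 59.5 RPKM in WT and 62.1 RPKM in Tgfbr2-/-, ahead of Mcm6 at 48.6 and 38.4 RPKM. The median S phase gene stood at 13.6 RPKM in WT and 7.30 RPKM in Tgfbr2-/- LP ILC2s, and the median mitotic gene at 2.03 and 1.52 RPKM. Kif23, the kinesin of the central spindle, had the highest group median of the mitotic genes, with 23.0 RPKM in WT and 19.7 RPKM in Tgfbr2-/- LP ILC2s, ahead of Birc5 at 16.7 RPKM in WT. The WT ranges overlapped, with Kif23 at 4.59 to 25.4 RPKM, Birc5 at 5.08 to 22.0 RPKM and Cenpa at 5.82 to 42.3 RPKM. In BM ILC2p the median S phase gene stood at 19.4 RPKM in WT and 42.5 RPKM in Tgfbr2-/-, and the median mitotic gene at 6.42 and 24.8 RPKM. WT BM ILC2p kept Pcna in front, at 102 RPKM, whereas in Tgfbr2-/- BM ILC2p the mitotic genes Birc5 (196 RPKM), Ube2c (165 RPKM) and Cdca8 (119 RPKM) came before Pcna at 110 RPKM. Ranges of these neighbours overlapped: Birc5 spanned 83.3 to 282 RPKM over the 4 libraries and Pcna 34.7 to 166 RPKM. Genes with at least 1 CPM in every library were 12 of 19 S phase and 7 of 24 mitotic genes in LP, and 9 of 19 and 8 of 24 in BM. Bub1 had no count in any of the 4 BM libraries of experiment 1.

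**Figure D2:**
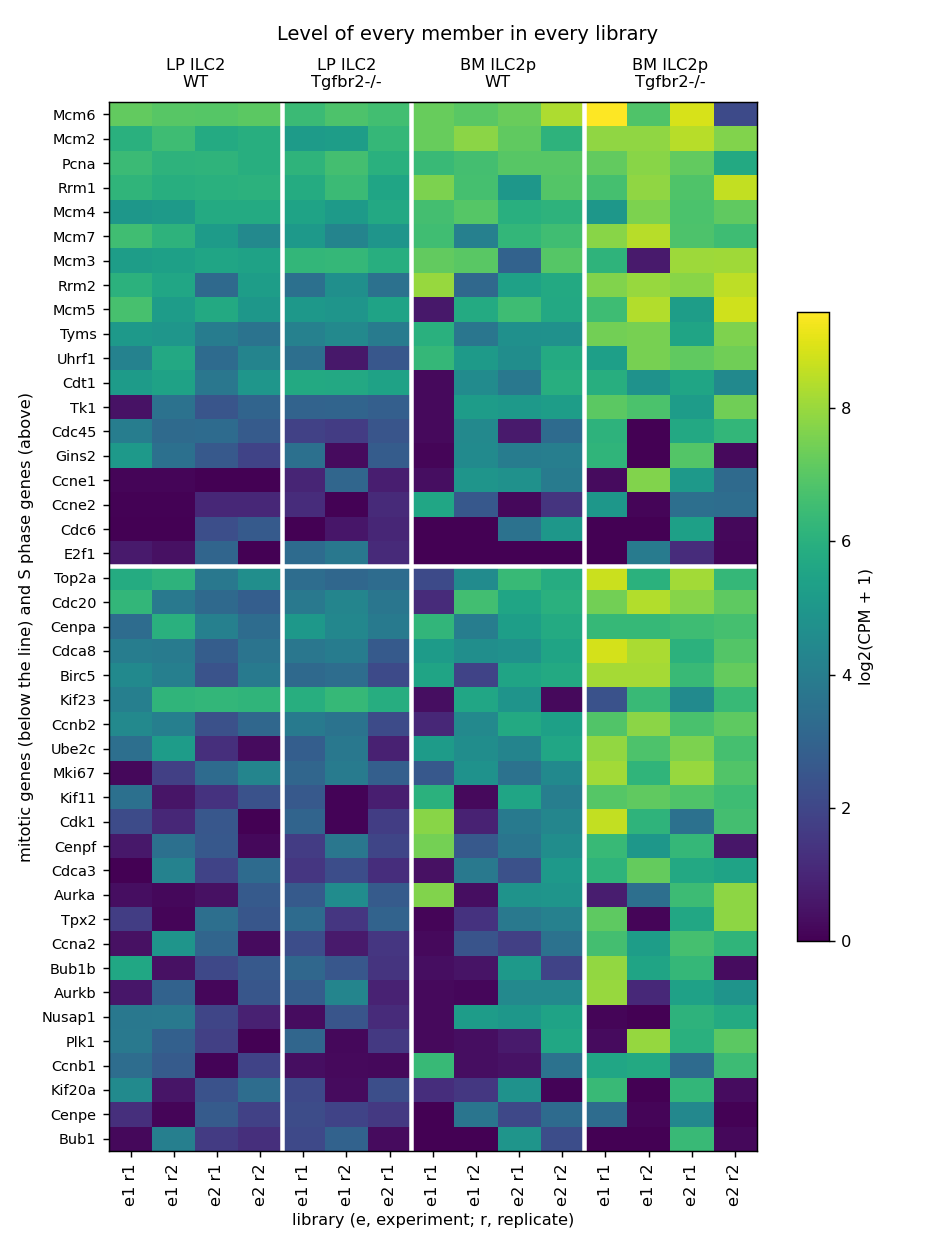
Level of each of the 43 cell cycle genes (rows, S phase above mitotic) in each of the 15 libraries (columns, grouped by cell type and genotype) as log2(TMM CPM + 1). Kif23 is at 57.6 to 79.1 CPM in LP ILC2s except in WT replicate 1 of experiment 1 (15.8 CPM), and single genes drop to near 0 in single BM libraries, most often in WT replicate 1 of experiment 1, where 18 of 43 are under 1 CPM.

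In BM ILC2p, mitotic genes as a class stood higher in Tgfbr2-/- than in WT libraries, S phase genes by a smaller ratio, and Mki67 alone of the 43 passed the test. The mean mitotic sum was 642 ± 240 CPM (SD, n = 4) among WT and 2543 ± 677 CPM (SD, n = 4) in Tgfbr2-/-, a ratio of 3.96 (4.54 in experiment 1 and 3.37 in experiment 2). The mean S phase sum was 1135 ± 214 CPM (SD, n = 4) among WT and 2470 ± 153 CPM (SD, n = 4) in Tgfbr2-/-, a ratio of 2.18 (2.06 and 2.31). A gene was called when edgeR's quasi-likelihood test, with experiment in the model, gave an adjusted p (Benjamini-Hochberg) below 0.1 with more than 1.5-fold difference. By that rule 1 mitotic gene of 23 tested was higher and 0 of 17 S phase genes, where 2.61% of all 9242 genes tested were called higher, and 0 of either class was lower, where 0.866% were. Bub1, Cdc6 and E2f1 had counts in too few libraries to pass the filter and were not tested. At an unadjusted p under 0.05, 8 mitotic genes and 1 S phase gene were higher (5.78% of all genes tested) and 0 were lower (3.93%). The median log2 fold change was 2.39 over the mitotic genes and 1.29 over the S phase genes, beside −0.10 over all genes tested. It was positive in 21 of 23 mitotic genes, the others being Nusap1 (−3.50 ± 3.78 SE) and Aurka (−0.92 ± 2.96 SE), and in 17 of 17 S phase genes.

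Among S phase genes of BM ILC2p, Tyms, the enzyme that makes thymidylate, had the smallest p-value. Tyms was at 63.1, 12, 25.9 and 26.4 CPM (WT) against 173, 181, 44.7 and 197 CPM (Tgfbr2-/-). Its 1 low Tgfbr2-/- library lay within the range of WT and the other 3 above it (log2 fold change 2.18 ± 0.81 SE, adjusted p = 0.366 in edgeR with Benjamini-Hochberg adjustment). Mcm5, a subunit of the helicase ring, was at 0.536, 53.0, 90.5 and 51.5 CPM (WT) against 91.0, 329, 37.3 and 436 CPM (Tgfbr2-/-). The groups overlapped through the same low Tgfbr2-/- library, replicate 1 of experiment 2 (2.32 ± 1.26 SE, adjusted p = 0.703 in edgeR with Benjamini-Hochberg adjustment). Rrm2, the regulated subunit of ribonucleotide reductase, was at 254, 8.08, 41.6 and 52.8 CPM (WT) against 198, 254, 218 and 359 CPM (Tgfbr2-/-). WT replicate 1 of experiment 1 alone reached the Tgfbr2-/- range. The log2 fold change of Rrm2 was 1.66 ± 0.92 SE (adjusted p = 0.711 in edgeR with Benjamini-Hochberg adjustment), and without that WT library Rrm2 was the 1 S phase gene called. Pcna overlapped between the genotypes, at 84.4, 97.9, 124 and 125 CPM (WT) against 142, 218, 143 and 52.2 CPM (Tgfbr2-/-) (0.29 ± 0.61 SE, adjusted p = 0.958 in edgeR with Benjamini-Hochberg adjustment). Of the 17 S phase genes tested, 0 had all Tgfbr2-/- libraries above all WT libraries, where 6.29% of all genes tested did.

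Mki67 was the mitotic gene called. It was at 5.00, 27.1, 10.7 and 21.3 CPM (WT) against 276, 71.8, 251 and 115 CPM (Tgfbr2-/-). Every Tgfbr2-/- library stood above every WT library, and the fold change was 10.9 (log2 3.45 ± 0.87 SE, adjusted p = 0.0972 in edgeR with Benjamini-Hochberg adjustment). Permuting the genotype within experiments gave an exact two-sided p = 0.0556 for Mki67, the smallest that these 36 arrangements allow. The call of Mki67 was lost with library size scaling, with a replicate block and with limma on log2(RPKM + 1). It was also lost in each experiment alone and on leaving out any library except Tgfbr2-/- replicate 2 of experiment 1. The log2 fold change was 3.38 and 3.46 in experiments 1 and 2 alone and 2.99 to 4.04 on leaving out a library. DESeq2 kept the call (log2 3.60 ± 0.76 SE, adjusted p = 7.1e-05).

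Of the other mitotic genes always described, Top2a was at 3.39, 22.7, 80.5 and 56.8 CPM (WT) against 408, 64.0, 278 and 76.7 CPM (Tgfbr2-/-). The lowest Tgfbr2-/- library lay below the highest WT library (log2 fold change 2.74 ± 1.10 SE, adjusted p = 0.430 in edgeR with Benjamini-Hochberg adjustment). Cdk1, the mitotic kinase itself, was at 218, 0.872, 14.0 and 19.4 CPM (WT) against 384, 68.7, 10.5 and 96.9 CPM (Tgfbr2-/-) (1.32 ± 1.31 SE). Its partner Ccnb1 was at 81.5, 0.291, 0.368 and 10.7 CPM (WT) against 47.1, 52.1, 8.73 and 88.1 CPM (Tgfbr2-/-) (1.66 ± 1.91 SE). Both were far higher in WT replicate 1 of experiment 1 than in the other WT libraries, and their groups overlapped. Cdca8 and Ube2c, singled out after their values were seen, separated the groups. Cdca8 was at 35.1, 24.7, 26.2 and 45.2 CPM (WT) against 450, 298, 66.3 and 119 CPM (Tgfbr2-/-) (2.47 ± 0.72 SE, adjusted p = 0.165 in edgeR with Benjamini-Hochberg adjustment). Ube2c was at 34.8, 23.6, 18.2 and 46.5 CPM (WT) against 242, 112, 191 and 100 CPM (Tgfbr2-/-) (2.35 ± 0.71 SE, adjusted p = 0.186 in edgeR with Benjamini-Hochberg adjustment).

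Over all 4 libraries a group, 10 of 23 mitotic genes had every Tgfbr2-/- BM library above every WT library (Ube2c, Ccna2, Cdc20, Cdca8, Cenpa, Cdca3, Mki67, Ccnb2, Birc5 and Kif11), where 6.29% of all genes tested did, and 0 had the reverse, where 3.83% did. Of these 10 genes, Ube2c, Cdc20, Cdca8, Cenpa, Mki67, Ccnb2 and Birc5 reached 1 CPM in all 8 BM libraries. DESeq2, on the same counts and thresholds, called 11 mitotic genes higher (Tpx2, Bub1b, Ube2c, Ccna2, Cdca8, Plk1, Mki67, Ccnb2, Aurkb, Top2a and Birc5) and 1 S phase gene, Tyms, where it called 7.31% of all genes tested, and 0 lower, where it called 5.98%. The tools thus differed by 10 mitotic genes, of which Tpx2, Bub1b, Plk1, Aurkb and Top2a overlapped between the genotypes. Within experiments the medians over mitotic genes were 3.38 and 1.38 and those over S phase genes 1.5 and 1.54. With the patchy WT replicate 1 of experiment 1 left out, the medians were 2.31 and 1.33, and 0 mitotic genes were called.

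**Figure D3:**
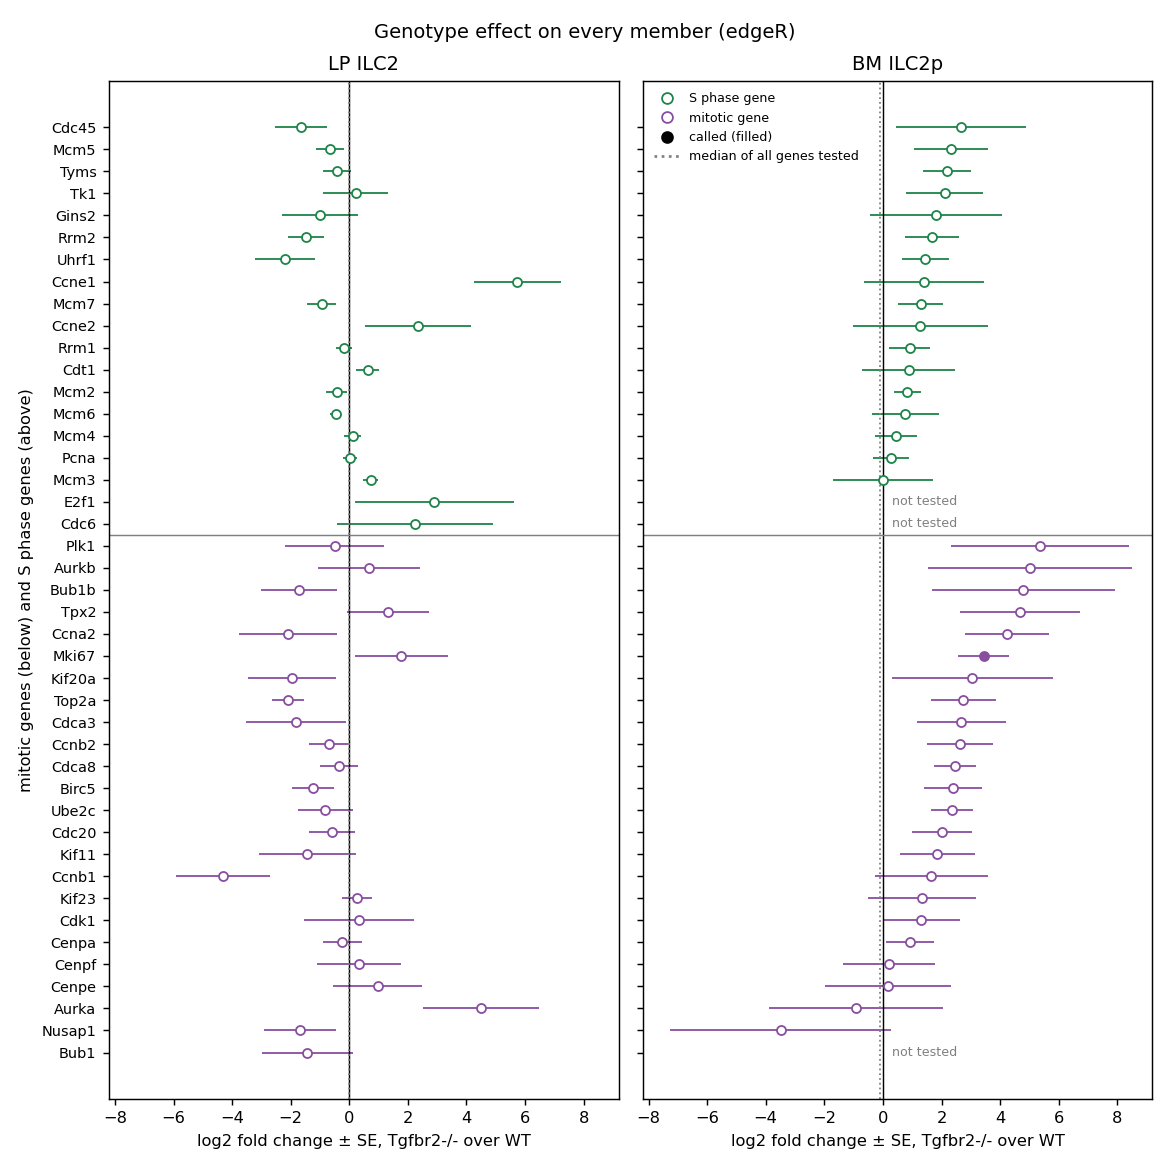
Log2 fold change of Tgfbr2-/- over WT with its SE from edgeR for each cell cycle gene, in LP ILC2s (left) and BM ILC2p (right), with S phase genes above the line, a filled point for a called gene and a dotted line for the median of all genes tested. In BM ILC2p all 17 tested S phase genes and 21 of 23 tested mitotic genes lie right of 0 with only Mki67 filled, while LP ILC2s scatter around 0; the point of Ccne1 in LP ILC2s rests on WT counts of 0 to 2 and is no bound.

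**Figure D4:**
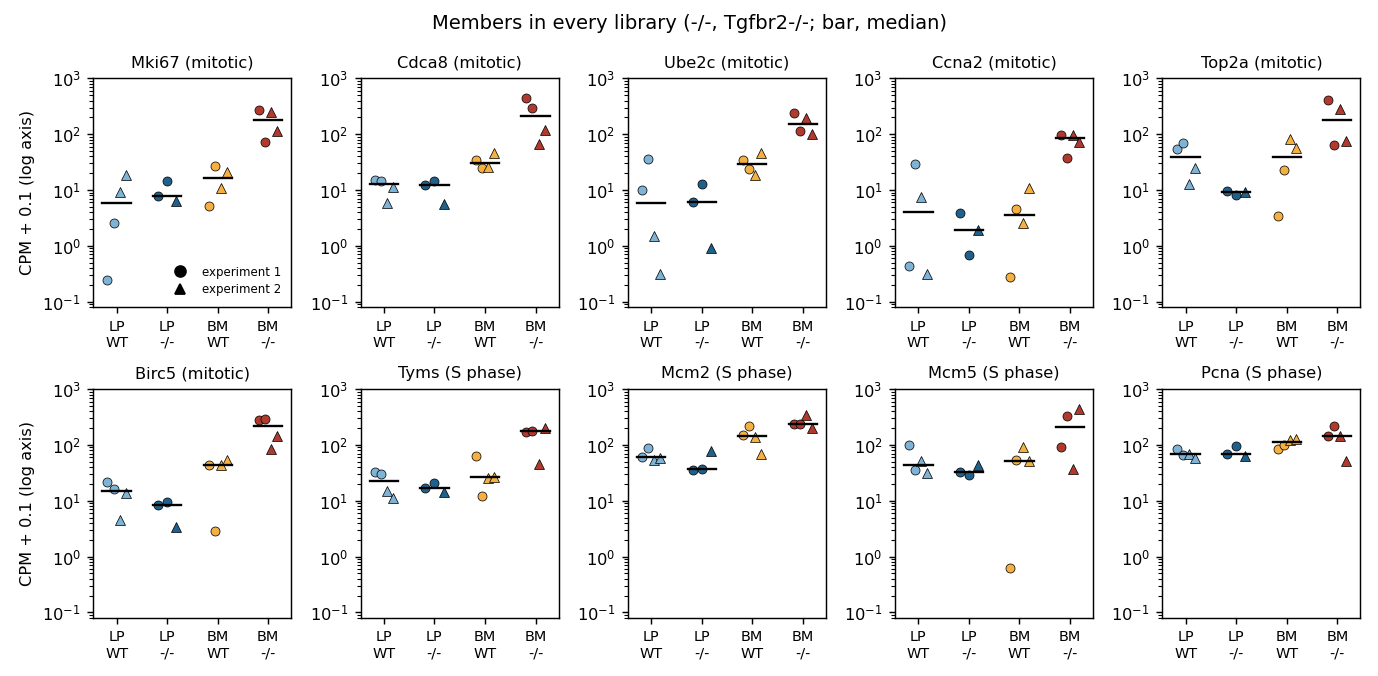
Level in each library (TMM CPM + 0.1, log axes) of 6 mitotic and 4 S phase genes, picked after their values were seen, with circles for experiment 1, triangles for experiment 2 and bars for group medians. Mki67 has all 4 Tgfbr2-/- BM libraries, at 71.8 to 276 CPM, above all WT BM libraries, at 5.00 to 27.1 CPM, and Pcna overlaps between the genotypes in both cell types.

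Further genes of the cell cycle came from lists of the same roles. Their summed level was 2.12 times as high in Tgfbr2-/- as in WT BM ILC2p for other S phase genes and 2.69 times for other mitotic genes. Of 48 other S phase genes tested in BM ILC2p, 36 had a positive log2 fold change (median 0.92), and of 48 other mitotic genes 41 did (median 1.53), with 0 called in either list by edgeR (2 and 4 at an unadjusted p under 0.05 in either direction, or 4.17% and 8.33%, beside 9.71% of all genes tested). Of the 10 G1 cyclins and kinases tested, 1 rose (2.61% of all genes were called higher) and 1 fell (0.866% were called lower), and both are D cyclins, which link growth signals to the start of the cycle. Ccnd3 was at 138, 205, 194 and 192 CPM (WT) against 542, 407, 1019 and 601 CPM (Tgfbr2-/-) (log2 fold change 1.74 ± 0.33 SE, adjusted p = 0.0266 in edgeR with Benjamini-Hochberg adjustment). Ccnd2 was at 1310, 793, 668 and 665 CPM (WT) against 411, 329, 343 and 350 CPM (Tgfbr2-/-) (−1.26 ± 0.26 SE, adjusted p = 0.0467 in edgeR with Benjamini-Hochberg adjustment). Neither D cyclin overlapped between the groups. Of 19 tested inhibitors and quiescence genes, such as Cdkn1a, Btg1 and Rb1, 3 had a positive log2 fold change and 16 a negative one (median −0.52), with 0 called by edgeR and 1 in each direction at an unadjusted p under 0.05 (10.5% of the list, beside the same 9.71%).

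The same 4 libraries that were high in mitotic genes were those high in granulocyte markers and low in ILC2 markers. The highest mitotic sum, 3547 CPM, was in the library with the highest neutrophil sum, 90853 CPM, and the lowest, 2077 CPM, was in the one with the highest precursor sum, 16526 CPM. WT BM libraries, at 604 to 1725 CPM of precursor markers, showed mitotic sums of 355 to 939 CPM. Basophil and mast cell markers moved likewise, from 111 to 298 CPM in WT to 1212 to 1908 CPM in Tgfbr2-/- BM libraries. Prss34 was the most abundant of them in Tgfbr2-/-, at a mean of 900.0 CPM. The T cell marker sum was lower in Tgfbr2-/-, at 133 to 217 CPM against 337 to 550 CPM. Lat made up most of that sum, with a mean of 121 CPM in Tgfbr2-/- and 356 CPM in WT. NK and ILC1 markers, of which Prf1 was the most abundant and Gzma was called, summed to 0.536 to 37.5 CPM in WT and 94.5 to 428 CPM in Tgfbr2-/-, and stem and progenitor markers, led by Kit, to 14.6 to 203 CPM and 206 to 416 CPM. B cell (0.792 to 42.0 and 1.99 to 165 CPM) and ILC3 markers (19.4 to 109 and 23.9 to 192 CPM) overlapped between the genotypes. Erythroid markers, summed, were 20.6 to 45.8 CPM (WT) against 46.3 to 247 CPM (Tgfbr2-/-). What part of the cycling genes came from these cells was not tested.

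**Figure D5:**
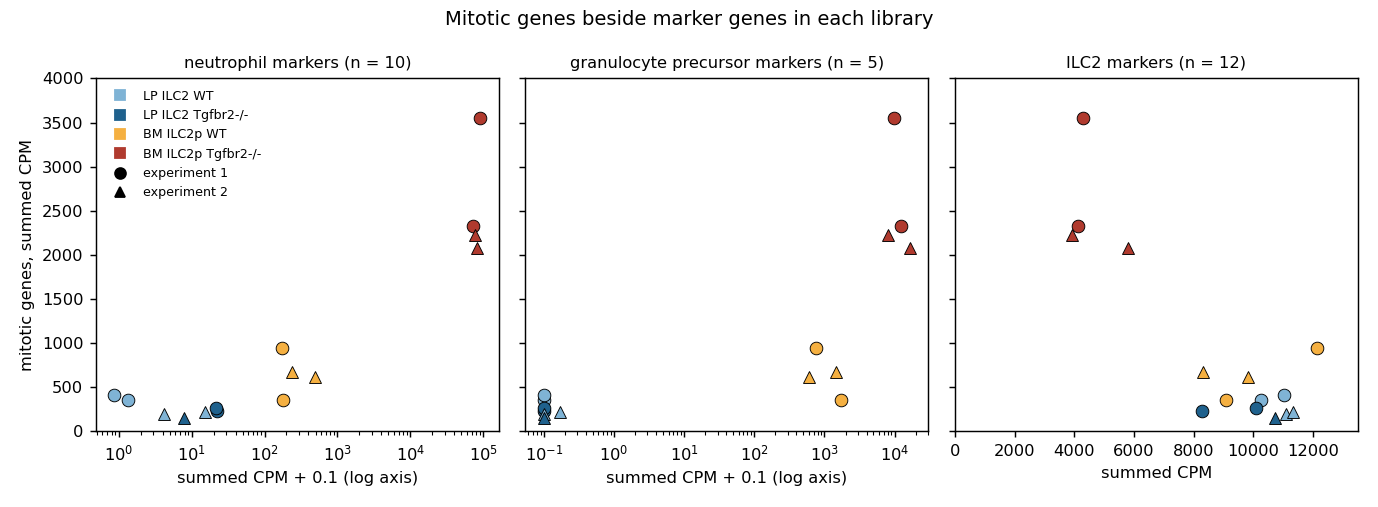
Summed level of the 24 mitotic genes (TMM CPM, y axis) in each library against the summed level of 10 neutrophil markers and 5 granulocyte precursor markers (log axes, CPM + 0.1) and of 12 ILC2 markers (linear axis from 0). The 4 Tgfbr2-/- BM libraries form their own group in each panel, with mitotic sums of 2077 to 3547 CPM, granulocyte marker sums above every other library and ILC2 marker sums of 3909 to 5802 CPM, below every other library.

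In LP ILC2s, sorted 1 day after the last treatment, no cell cycle gene passed the test of genotype. The mean S phase sum was 673 ± 121 CPM (SD, n = 4) among WT and 574 ± 35.5 CPM (SD, n = 3) in Tgfbr2-/-, and the mean mitotic sum 289 ± 105 CPM (SD, n = 4) and 214 ± 62.5 CPM (SD, n = 3). By edgeR 0 of 19 S phase and 0 of 24 mitotic genes were called, and so were 0% of all 11981 genes tested in either direction. At an unadjusted p under 0.05, Mcm3 of the S phase genes was higher (2.56% of all genes tested were), as was Ccne1, which was tested only through its counts in Tgfbr2-/- libraries, and Mcm6, Rrm2, Top2a and Ccnb1 were lower (2.09%). The median log2 fold change was −0.17 over S phase genes, 9 of 19 positive, and −0.64 over mitotic genes, 8 of 24 positive, beside −0.01 over all genes tested. The mitotic median was −0.038 without WT replicate 2 and −0.19 without WT replicate 1 of experiment 1. In experiment 2 alone, and without its Tgfbr2-/- library, the S phase median turned to 0.05 and 0.04. DESeq2 called 1 mitotic gene higher, Aurka, and 1 lower, Top2a, where it called 2.25% and 0.576% of all genes tested. Aurka was at 0.144 to 0.338 CPM in WT libraries except WT replicate 2 of experiment 2 (5.38 CPM). It was thus tested mainly through its counts in Tgfbr2-/- libraries.

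Top2a was at 54.8, 68.1, 12.8 and 24.6 CPM (WT) against 9.46, 7.98 and 9.02 CPM (Tgfbr2-/-). All 3 Tgfbr2-/- libraries were below all WT libraries, and the WT libraries of experiment 1 were themselves above those of experiment 2. The log2 fold change was −2.10 ± 0.56 SE (adjusted p = 0.898 in edgeR with Benjamini-Hochberg adjustment). Mcm3 went the other way, at 37.2, 40.2, 45.5 and 42.5 CPM (WT) against 75.4, 76.2 and 60.0 CPM (Tgfbr2-/-), with no overlap (0.74 ± 0.25 SE, adjusted p = 0.898 in edgeR with Benjamini-Hochberg adjustment, and exact permutation p = 0.0556, the smallest that 18 arrangements allow). Mcm6, of the same ring, was at 141, 127, 122 and 132 CPM (WT) against 86.5, 110 and 95.4 CPM (Tgfbr2-/-) (−0.46 ± 0.19 SE). These subunits of the same ring thus lay on opposite sides. Genes with no overlap were Mcm3 and Cdt1 on the high side (3.04% of all genes tested), with Ccne1 beside them, and Mcm6, Cdc45 and Top2a on the low side (2.35%). Ccne1 had 2, 2, 0 and 0 counts in WT and 30, 248 and 10 counts in Tgfbr2-/- LP libraries. No fold is given for it, since all 4 WT libraries were under the floor of 3 counts, a limit that covers counting error only.

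Mki67 was at 0.140, 2.45, 8.95 and 18.6 CPM (WT) against 7.63, 14.3 and 6.19 CPM (Tgfbr2-/-), within the range of WT (1.78 ± 1.58 SE). Pcna was at 85.0, 67.0, 69.3 and 58.8 CPM (WT) against 69.5, 96.8 and 62.2 CPM (Tgfbr2-/-) (0.03 ± 0.25 SE), the smallest difference among the genes always described. Mcm5 (−0.68 ± 0.48 SE), Tyms (−0.42 ± 0.48 SE) and Rrm2 (−1.46 ± 0.61 SE) had negative values. Ccnb1 was at 9.36, 5.48, 0.0563 and 2.72 CPM (WT) against 0.290, 0.185 and 0.146 CPM (Tgfbr2-/-) (−4.31 ± 1.60 SE, adjusted p = 0.898 in edgeR with Benjamini-Hochberg adjustment), with 1 WT library below all Tgfbr2-/- libraries. Cdk1, at 0 to 4.84 CPM (WT) against 0.0616 to 7.28 CPM (Tgfbr2-/-), was too low to place (0.34 ± 1.87 SE). Neutrophil markers in these 7 libraries, at 0.769 to 21.9 CPM summed, were low throughout. Among other markers, of the NK and ILC1 markers 6 of 6 tested had a positive log2 fold change (median 1.47) and of the epithelial markers 5 of 6 (median 3.50), with 3 of each at an unadjusted p under 0.05 and 0 called by edgeR. NK and ILC1 markers, led by Gzma, summed to 392, 230, 218 and 286 CPM (WT) against 295, 499 and 945 CPM (Tgfbr2-/-), and epithelial markers to 6.74, 15.7, 99.4 and 333 CPM against 43.7, 33.8 and 893 CPM. Their part in the LP values was not tested. Of the other lists, 53 S phase genes (28 positive, median 0.07), 55 mitotic genes (20 positive, median −0.36), 12 G1 genes (6 positive, median 0.05) and 24 inhibitors (17 positive, median 0.30) were tested in LP ILC2s. By edgeR 0 were called in each, with 3 S phase genes lower (5.66% of that list, beside 2.09% of all genes tested) and 0 others past an unadjusted p of 0.05.

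Whether the genotype effect differed between BM ILC2p and LP ILC2s was tested as an interaction over all 15 libraries. By edgeR 0 of 43 cell cycle genes were called, where 0.523% of 12806 genes tested were called with a larger and 0.469% with a smaller effect in BM. At an unadjusted p under 0.05, 4 S phase genes (Mcm7, Tyms, Rrm2 and Uhrf1) and 7 mitotic genes (Top2a, Ccnb1, Ccnb2, Ccna2, Birc5, Ube2c and Cdca8) had a larger effect in BM, where 4.03% of all genes tested did. None had a smaller one, where 8.11% did. The median difference in log2 fold change was 1.27 over S phase and 3.22 over mitotic genes, beside −0.31 over all genes tested. Top2a had the smallest p (difference 4.84 ± 1.37 SE, adjusted p = 0.149 in edgeR with Benjamini-Hochberg adjustment), followed by Cdca8 (2.83, adjusted p = 0.209 likewise). Of S phase genes Uhrf1 (3.67, adjusted p = 0.271) and Tyms (2.61, adjusted p = 0.302) came first in the same edgeR fit. The difference was 2.99 ± 1.54 SE for Mcm5, 0.25 ± 0.71 SE for Pcna, 3.13 ± 1.26 SE for Rrm2, 1.68 ± 1.67 SE for Mki67, 0.99 ± 2.34 SE for Cdk1 and 5.97 ± 2.59 SE for Ccnb1.

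Across cell types, many S phase and mitotic genes were higher in BM ILC2p than in LP ILC2s, averaged over the genotypes. By edgeR 10 of 19 S phase genes (Mcm2, Mcm4, Mcm7, Tyms, Rrm1, Rrm2, Ccne1, Ccne2, Tk1 and Uhrf1) and 12 of 24 mitotic genes (Mki67, Top2a, Ccnb1, Ccnb2, Cdk1, Cdc20, Aurka, Birc5, Kif11, Cenpf, Ube2c and Cdca8) were called higher, where 4.44% of 12806 genes tested were. Called lower were 0 of them, where 11.3% of all genes were. The median log2 fold change of BM over LP was 1.59 for S phase and 2.63 for mitotic genes, beside −0.03 for all genes tested. Cell type, tissue, chimera and sequencing run cannot be told apart in this design.

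Split by genotype, the calls were made in the Tgfbr2-/- libraries, and the test of that difference between the genotypes is the interaction above, with 0 calls. With WT libraries only, 0 S phase and 0 mitotic genes were called (0.736% of 10468 genes were called higher and 1.82% lower), and the medians were 0.76 and 1.2. With Tgfbr2-/- libraries only, 7 S phase and 11 mitotic genes were called higher (4.6% of 11469 genes higher and 9.13% lower), and the medians were 2.93 and 4.25. DESeq2 over all libraries called 11 S phase and 19 mitotic genes higher, where it called 8.28% of all genes, and 1 S phase gene, E2f1, lower, where it called 11.6%. E2f1 did not pass the filter in BM ILC2p and was tested here mainly through its counts in LP, so no fold is given. Cdca8 had 1.5 ± 0.78 SE among WT and 4.54 ± 0.89 SE among Tgfbr2-/- libraries, and Top2a 0.03 ± 0.92 SE and 4.64 ± 0.88 SE.

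Of S phase genes called across cell types, Ccne1 (adjusted p = 0.0174) is given no fold here, since its WT LP libraries held 0 to 2 counts, and the largest log2 fold changes of the others were those of Ccne2 (4.25, adjusted p = 0.0898), Tk1 (3.11, adjusted p = 0.0362), Uhrf1 (2.85, adjusted p = 0.0146) and Rrm2 (2.63, adjusted p = 0.0172), all from edgeR with Benjamini-Hochberg adjustment. The cyclin E genes were low in LP ILC2s, with Ccne2 at 0.0468, 0.0481, 1.07 and 1.05 CPM (WT) against 1.32, 0.0308 and 1.16 CPM (Tgfbr2-/-). Its values of 0.0308 to 0.0481 CPM lay under the floor of 3 counts, so the size of its fold is uncertain. Ccne2 in BM ILC2p was at 47.0, 5.00, 0.141 and 1.67 CPM (WT) against 31.1, 0.104, 9.88 and 9.33 CPM (Tgfbr2-/-), so that 1 library of each genotype fell among those of LP. Tk1, the salvage enzyme of thymidine, was at 0.374 to 10.8 CPM over the LP libraries and at 32.4 to 167 CPM over the BM libraries, except WT replicate 1 of experiment 1 at 0.179 CPM. Of mitotic genes the largest were Ccnb1 (5.12, adjusted p = 0.0274), Cdk1 (5.09, adjusted p = 0.0297), Kif11 (4.40, adjusted p = 0.0231), Aurka (4.13, adjusted p = 0.0643) and Cenpf (3.39, adjusted p = 0.0834) in the same edgeR fit. Cdk1 reached at most 7.28 CPM and Ccnb1 at most 9.36 CPM over the 7 LP libraries, while Aurka ranged from 0.144 to 5.38 CPM in WT and from 5.34 to 23.1 CPM in Tgfbr2-/- LP ILC2s. Mcm5 (1.25 ± 0.72 SE) and Pcna (0.74 ± 0.34 SE) were not called, and Kif23 had a negative value (−1.04 ± 0.94 SE).

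Calls in the other lists stand beside the same 4.44% of all genes tested called higher and 11.3% called lower. Of 55 other S phase genes 4 were higher in BM ILC2p, led by the repressor E2f8 (log2 fold change 6.61), E2f2 (4.85) and Cdca7 (3.04), and 1 was called lower, the exonuclease Exo1. Exo1 had no count in any BM library and was tested only through its counts in LP, so no fold is given. Of 63 other mitotic genes tested 12 were higher, led by cyclin F (Ccnf, 6.44), the checkpoint kinase Ttk (6.44) and separase (Espl1, 6.08), and 0 were lower. Among G1 genes Ccnd2 was lower (−0.83), with WT BM libraries at 665 to 1310 CPM overlapping the LP libraries at 900.0 to 1278 CPM and Tgfbr2-/- BM libraries below both at 329 to 411 CPM. Among 25 inhibitors and quiescence genes Cdkn2d was higher (1.58), with 20.3 to 35.1 CPM in LP, an overlapping 20.9 to 54.2 CPM in WT BM and 142 to 187 CPM in Tgfbr2-/- BM libraries, and 4 were lower, led by the CDK inhibitors Cdkn1c (−5.39) and Cdkn1a (−3.43) and by E2f5 (−3.51). Cdkn1a, which encodes p21, was in LP ILC2s at 1442, 1164, 393 and 382 CPM (WT) against 1026, 1899 and 633 CPM (Tgfbr2-/-), and at 1.09 to 268 CPM over the BM libraries, below every LP library.

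Between the experiments, 0 of the 43 genes differed by edgeR in LP ILC2s, and 0 of the 17 S phase and 23 mitotic genes tested in BM ILC2p. In LP ILC2s 0.284% of all genes tested were higher and 0.693% lower in experiment 2. Of the cell cycle genes, Ube2c and Ccnb2 were lower there at an unadjusted p under 0.05 (7.5% of all genes were), and Cdc6 was higher (5.78%). Cdc6 did not pass the filter in experiment 1 alone and was tested mainly through its counts in experiment 2, so no fold is given. Ube2c was at 9.87 and 36.6 CPM (WT) against 6.02 and 12.8 CPM (Tgfbr2-/-) of experiment 1, and at 1.41 and 0.210 CPM (WT) against 0.801 CPM (Tgfbr2-/-) of experiment 2, with no overlap (−4.31 ± 1.10 SE, adjusted p = 0.142 in edgeR with Benjamini-Hochberg adjustment). The median over mitotic genes was −1.23 and over S phase genes −0.25, beside −0.0016 over all genes. Mcm4 had the smallest p of the S phase genes after Cdc6 (0.56 ± 0.28 SE). The log2 fold changes of experiment 2 over experiment 1 were −0.25 for Mcm5, −0.34 for Pcna, −1.10 for Rrm2, −0.95 for Tyms, 2.11 for Mki67, −0.996 for Top2a, −0.26 for Cdk1 and −1.81 for Ccnb1. Cdkn1a fell between the experiments by 1.56 on the log2 scale (adjusted p = 0.0806 in edgeR with Benjamini-Hochberg adjustment). Epithelial markers summed to 6.74 to 43.7 CPM in experiment 1 and 99.4 to 893 CPM in experiment 2, and their part in the difference was not tested. In BM ILC2p 0% of all genes were called in either direction, and at an unadjusted p under 0.05 0 cell cycle genes were higher (2.13% of all genes) or lower (0.985%). Ccne2 (−2.80 ± 2.32 SE) and Mcm2 (−0.36 ± 0.46 SE) had the smallest p of the S phase genes there, and Cdk1 (−2.45 ± 1.36 SE) and Nusap1 of the mitotic genes. Nusap1 did not pass the filter in experiment 1 alone, so its fold between the experiments is not given. The values were 0.72 for Mcm5, −0.26 for Pcna, −0.62 for Rrm2, −0.59 for Tyms, 0.00058 for Mki67, 0.96 for Top2a and −1.52 for Ccnb1. Spread within a group was larger in BM: the median SD of log2(CPM + 1) was 0.74 over S phase and 1.42 over mitotic genes in WT LP ILC2s, and 1.97 and 2.10 in WT BM ILC2p. Over all genes with a mean of at least 5 CPM it was 0.62 in WT LP ILC2s and 1.54 in WT BM ILC2p. Among Tgfbr2-/- libraries it was 0.44 and 0.90 in LP (0.39 over those genes), and 1.13 and 1.65 in BM (2.40).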

How the data were processed

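The authors used TopHat to map the reads of 15 libraries on the mouse genome (mm9), with up to 15 hits a read kept (the submitters' processing notes name Bowtie2). Per the file headers, the deposited counts are raw reads per RefSeq gene over full transcripts, leaving out regions that genes of different names share. The RPKM values were deposited beside them, scaled by the authors by transcript length and read number. The strand of the libraries is not given in the sources used here, so reads of overlapping antisense genes cannot be told apart. Groups came from the labels. The library identifiers in the titles differ by a swap of digits from those in the file names for all 4 BM libraries of experiment 1, and the numbering of the Tgfbr2-/- LP libraries of experiment 1 differs too. Files were assigned by the sample record.

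Counts were fitted in edgeR 4.0.16 (R 4.3.3) with TMM scaling, filterByExpr and the quasi-likelihood test. Genotype was fitted for LP ILC2s and BM ILC2p apart, with experiment as covariate. Over all 15 libraries, the interaction was fitted with experiment within cell type, and cell type without experiment. No experiment held both cell types, so the cell type p-values take libraries of the same experiment as independent. P-values were adjusted by Benjamini-Hochberg over all genes tested. Printed CPM use TMM factors over all libraries. Single genes were also tested by exact permutation of genotype within experiments on log2(CPM + 1). Gene names given in every comparison are Mcm5, Pcna, Rrm2, Tyms, Mki67, Top2a, Cdk1 and Ccnb1. Beside them stand up to 5 called genes of each class with the largest change or, with none called, the 2 of smallest p-value, and other genes were named after their values were seen. The members, lists and tests were chosen with earlier results of these data known. Alternatives were limma 3.58.1 (log2 of RPKM + 1) and DESeq2 1.42.0, other scaling, filters and covariates, a replicate block, each experiment or genotype alone, and leaving out each library. The fits were tested on simulated counts with planted changes, the same spread setting for all genes and no experiment effect. That setting was not matched to the spread of the BM libraries.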

Additional observations from a re-analysis of the deposited data

Results flagged for a closer look

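In groups of 4 libraries, a library was noted when its gap to the nearest other exceeded Dixon's limit for the group's range. This was so for 12 of 75 groups examined over 25 quantities (the genes with values in the text and the sums), and chance gives about 1 in 20 groups for independent normal values. These quantities share libraries, are on the CPM scale and were in part chosen after their values were seen, so that rate is no benchmark for their count. WT replicate 1 of experiment 1 of BM ILC2p gave 6 of the 12. It was high in the mitotic genes Cdk1 (218 CPM, the next 19.4), Ccnb1 (81.5, the next 10.7), Aurka (201, the next 29.7) and Cenpf (174, the next 23.5) and in the S phase gene Ccne2 (47.0, the next 5.00), and low in Tk1 (0.179, the next 32.4). It was also the BM library with the most genes under 1 CPM. Tgfbr2-/- replicate 1 of experiment 2 of BM ILC2p was low in Tyms (44.7 CPM, the next 173) and high in Cdc6 (40.5, the next 0.155). The other 4 were Mcm3 in WT replicate 1 of experiment 2 of BM ILC2p (6.85 CPM, the next 123), Ccne1 in Tgfbr2-/- replicate 2 of experiment 1 of BM ILC2p (199.8 CPM, the next 33.0), Aurka in WT replicate 2 of experiment 2 of LP ILC2s (5.38 CPM, the next 0.338) and the mitotic sum in Tgfbr2-/- replicate 1 of experiment 1 of BM ILC2p (3547 CPM, the next 2327). The cause was not tested.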

How the results depend on the processing

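For genotype in LP ILC2s, DESeq2 called 338 genes and 2 mitotic genes, and no filter gave 3 genes, where edgeR gave 0. In experiment 2 alone the S phase median was 0.046 and the log2 fold changes were 0.12 for Mcm5, −0.0091 for Pcna, 0.17 for Tyms, −1.12 for Mki67 and −0.077 for Cdk1, each with the sign changed. Leaving out each library, the S phase median ran from −0.26 to 0.044, Pcna from −0.11 to 0.13 and Cdk1 from −1.77 to 1.99. For genotype in BM ILC2p, edgeR called 321 genes. DESeq2 called 1229 genes, 1 S phase and 11 mitotic genes, and at least 10 counts in every library left 199 genes (fewer genes tested) and 2 mitotic. Each experiment alone (fewer libraries) gave 38 and 77 genes and 0 mitotic in both, library size scaling 0 mitotic, limma 2 and no covariate 2. The limma median of S phase genes was 0.66, and Pcna was −0.051 with limma and −0.41 in experiment 2 alone. Leaving out each library gave 179 to 319 genes, 0 to 1 S phase and 0 to 1 mitotic genes. Library size scaling moved the median of all genes to −0.31, with S phase at 1.12 and mitotic at 2.21. For cell type, at least 10 counts left 479 genes called (fewer genes tested), with 6 of the 6 mitotic and 7 of the 9 S phase genes then tested. DESeq2 gave 19 mitotic. WT libraries only gave 268 genes, 0 S phase and 0 mitotic, medians of 0.76 and 1.2 and −0.17 for Mcm5. Tgfbr2-/- libraries only gave medians of 2.93 and 4.25, and limma gave 0.91 for S phase. Where no cause is named, the cause was not tested.

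Libraries of the same number did not deviate together (r = −0.0459 in LP, −0.0101 and −0.0274 in BM). In LP only experiment 1 could be checked. These values cannot tell whether the libraries were paired, and the labels do not say. With a replicate block, 175 genes and 0 mitotic genes were called in BM ILC2p (Mki67 had a log2 fold change of 3.49 and adjusted p = 0.339 in edgeR), and in LP ILC2s Pcna was −0.0063 and Cdk1 −1.22.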
